A study of Mus musculus with 8 samples.

Results

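The chaperones of the cytosol and the mitochondria were compared between E11.5 hearts of mice lacking Ogt in cardiomyocytes and hearts of control littermates. The members are the entries of the deposited FPKM table (fragments normalised to transcript length and to the mapped reads of the library) whose symbol belongs to the Dnaja, Dnajb, Dnajc, Hspa, Hspb, Hspd, Hspe, Hsph, Hsp90a, Cct2 to Cct8 or Bag1 to Bag6 families, apart from Hspa5, Dnajb9, Dnajb11 and Dnajc3 of the ER stress response. This rule found 82 of 23846 entries. It does not leave out all chaperones of the ER, as 9 tested members were listed there. Of the 82, 72 averaged at least 1 FPKM over the 8 libraries and were tested among 12629 genes. The other 10 were below this limit and left out of that test.

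Chaperones bind unfolded or partly folded proteins and help them fold, move between compartments or be degraded. Hsp70 proteins work in a cycle of ATP hydrolysis that J proteins (the Dnaj families) start and that Hsp110 and BAG proteins help to end by nucleotide exchange, and Hsp90 acts on later folding steps. Ring-shaped chaperonins enclose whole proteins, CCT in the cytosol and Hspd1 with its lid Hspe1 in the mitochondrial matrix, while small heat shock proteins hold unfolded proteins without using ATP. In heart muscle several of these proteins sit at the sarcomere, and many mitochondrial proteins need them on import.

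The cKO hearts came from embryos carrying a floxed Ogt allele and a Cre transgene driven by the cardiac Troponin T promoter (Ogt f/y; TnT-Cre), which removes Ogt, an X-linked gene that adds the sugar O-GlcNAc to proteins, in cardiomyocytes. The control libraries are titled OGTWT, with no further genotype in the labels, and the study calls the control hearts littermates. The labels name a B6 background for both groups, and the methods of the study name a mixed 129/SvJ and C57BL/6J one. There were 4 cKO and 4 control libraries, made from mRNA of whole hearts dissected at embryonic day 11.5. Whether a library is 1 heart or a pool is not stated, so p-values measure the spread between these libraries. The dissected hearts contain other cell types too, among them endothelial, epicardial and blood cells, in which this Cre leaves Ogt intact. In such bulk samples fewer cells of a type cannot be told apart from less RNA per cell.

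Ogt had 20.1, 21.6, 24.7 and 21.5 FPKM in cKO libraries 1 to 4, against 41.6, 43.3, 37.5 and 46.2 FPKM in control libraries 1 to 4. No value of the cKO group reached the control range (log2 fold change -0.92, p = 0.0286 by an exact permutation test, two-sided, the lowest p possible with 4 against 4). Summed FPKM of 12 cardiomyocyte markers was 21695 to 24464 in cKO and 20637 to 26701 in control libraries, with 1 marker of the 12, Pln, called lower. Of other cell types, 6 of 10 endothelial markers were lower (sums 289 to 309 in cKO, 327 to 358 in control) and 5 of 8 epicardial markers were higher (sums 226 to 262 in cKO, 181 to 197 in control). Over all genes tested, 14.9% were lower and 15.9% higher. Liver markers summed to 52.0 FPKM in cKO library 3 and to 0.75 to 1.42 FPKM in the other cKO libraries, against 0.72 to 0.94 FPKM in controls. Erythroid markers summed to 36364 to 53965 FPKM in cKO libraries. In controls they ran from 17560 FPKM (library 1) to 69359 FPKM (library 4), and 0 were called. The part of these differences in the chaperone results was not tested. Control library 3 was the highest of the 4 controls in 47 of the 72 tested members (65.3%, against 46.6% of all genes tested), and control library 4 was the lowest in 38 (52.8%, against 35.7% of all genes).

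Chaperone transcripts moved in both directions in cKO hearts, and by modest amounts. A gene was called when its adjusted p was under 0.05 (limma on log2(FPKM + 0.5), Benjamini-Hochberg adjustment over the 12629 genes), and fold changes below are on that log2 scale, as cKO over control. Of the 72 members, 19 were higher (26.4%) and 8 were lower (11.1%), against 15.9% and 14.9% of all genes tested. Either way 27 were called (37.5%, against 30.7% of all genes). The median change was 0.04 over the tested members and 0.02 over all genes. Of the tested members, 0 were called with a change over 1.5-fold, against 3.58% of all genes tested. In 21 tested members (29.2%, against 32.8% of all genes) the ranges of the 2 groups did not overlap. With 1 library left out in turn, 10, 11, 18 and 9 members were higher without cKO libraries 1 to 4 (12.9, 11.4, 12.9 and 10.7% of all genes), and 12, 11, 25 and 11 without control libraries 1 to 4 (13.4, 11.7, 22.2 and 12.6% of all genes). In the same fits 5, 4, 4 and 5 members were lower (12.6, 10.8, 12.7 and 10.3% of all genes), and 5, 6, 6 and 8 (12.5, 11.1, 17.0 and 13.8% of all genes). Calls among all genes were also fewer in every fit but that without control library 3, where 39.2% of all genes and 31 members were called. With the haemoglobin genes left out, 27 members were called, 22 of them also called with those genes, and 3843 of 12623 genes. The plot of log2 fold changes by role shows where the calls lie.

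**Figure D1:**
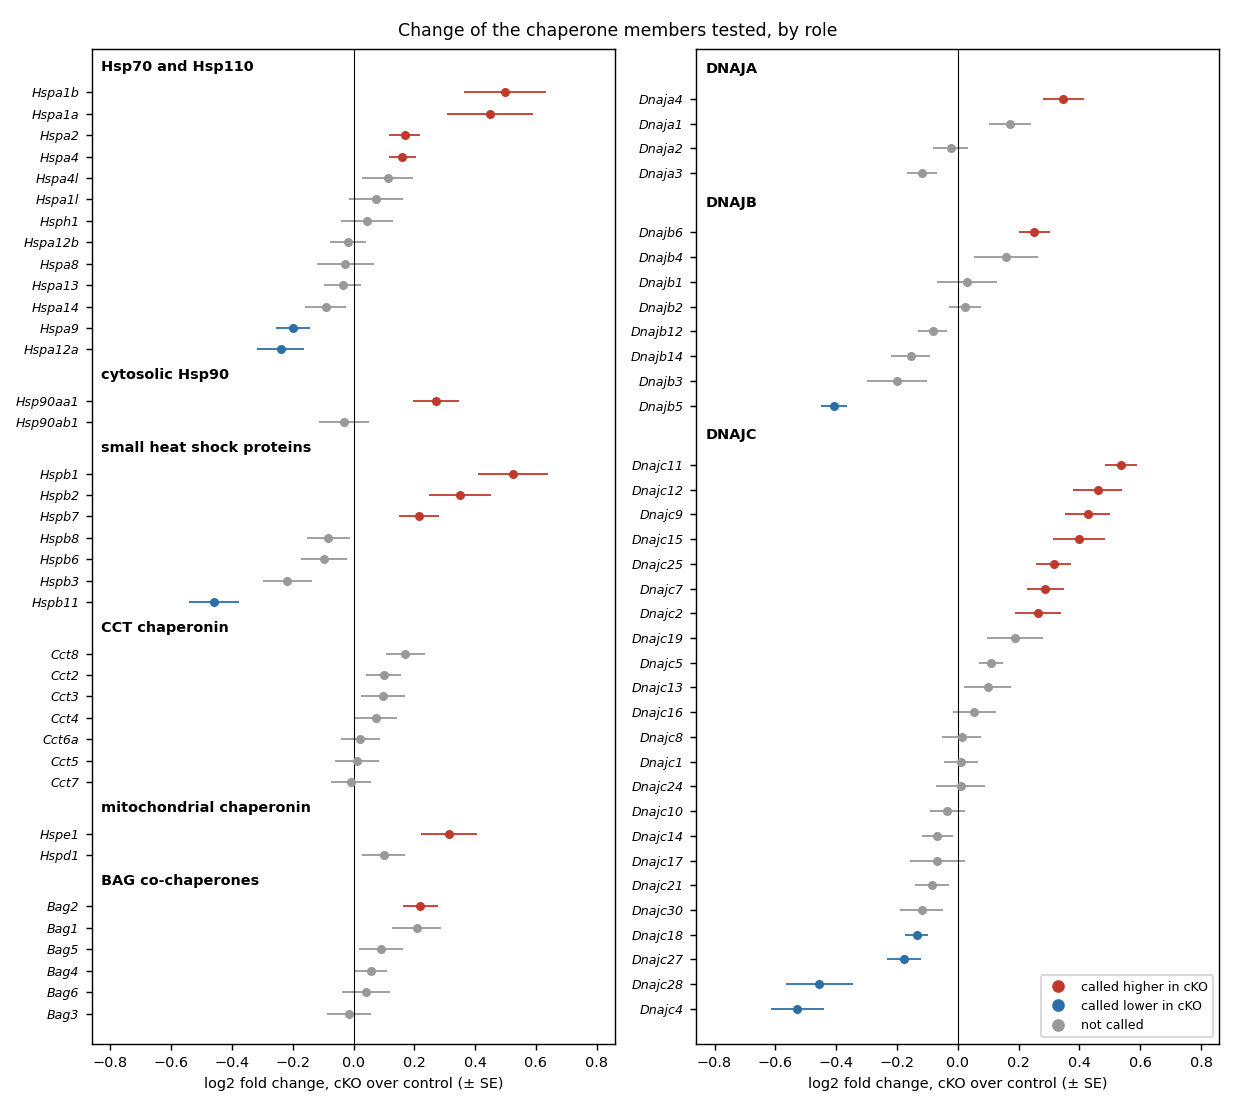
Log2 fold change (cKO over control, on log2(FPKM + 0.5)) of each of the 72 tested members, grouped by role, with bars of 1 standard error. Red points were called higher, blue points lower and grey points neither. All values lie between -0.53 (Dnajc4) and 0.54 (Dnajc11), and no CCT subunit was called.

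With any single library left out, 13 calls held (18.1% of the tested members, near the 19.4% of all genes whose calls held), of which 9 were higher and 4 were lower (9.87% and 9.54% of all genes). J proteins were 11 of the 13 and 48.6% of the tested members. As a rate, 31.4% of the 35 tested J proteins held, against 19.4% of all genes. In the 5 libraries of 1 prefix of the library descriptions, only 5 of the 13 stayed called (Dnajc11, Dnajb5, Dnajc4, Dnajc12 and Hspb11). In that fit 1465 genes were called, against 3879 with all libraries. The J proteins as a whole had 35 tested members, with 9 higher, 5 lower and a median change of 0.01. These were 25.7% and 14.3%, against 15.9% and 14.9% of all genes. The plot of FPKM by library shows the 13 genes.

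**Figure D2:**
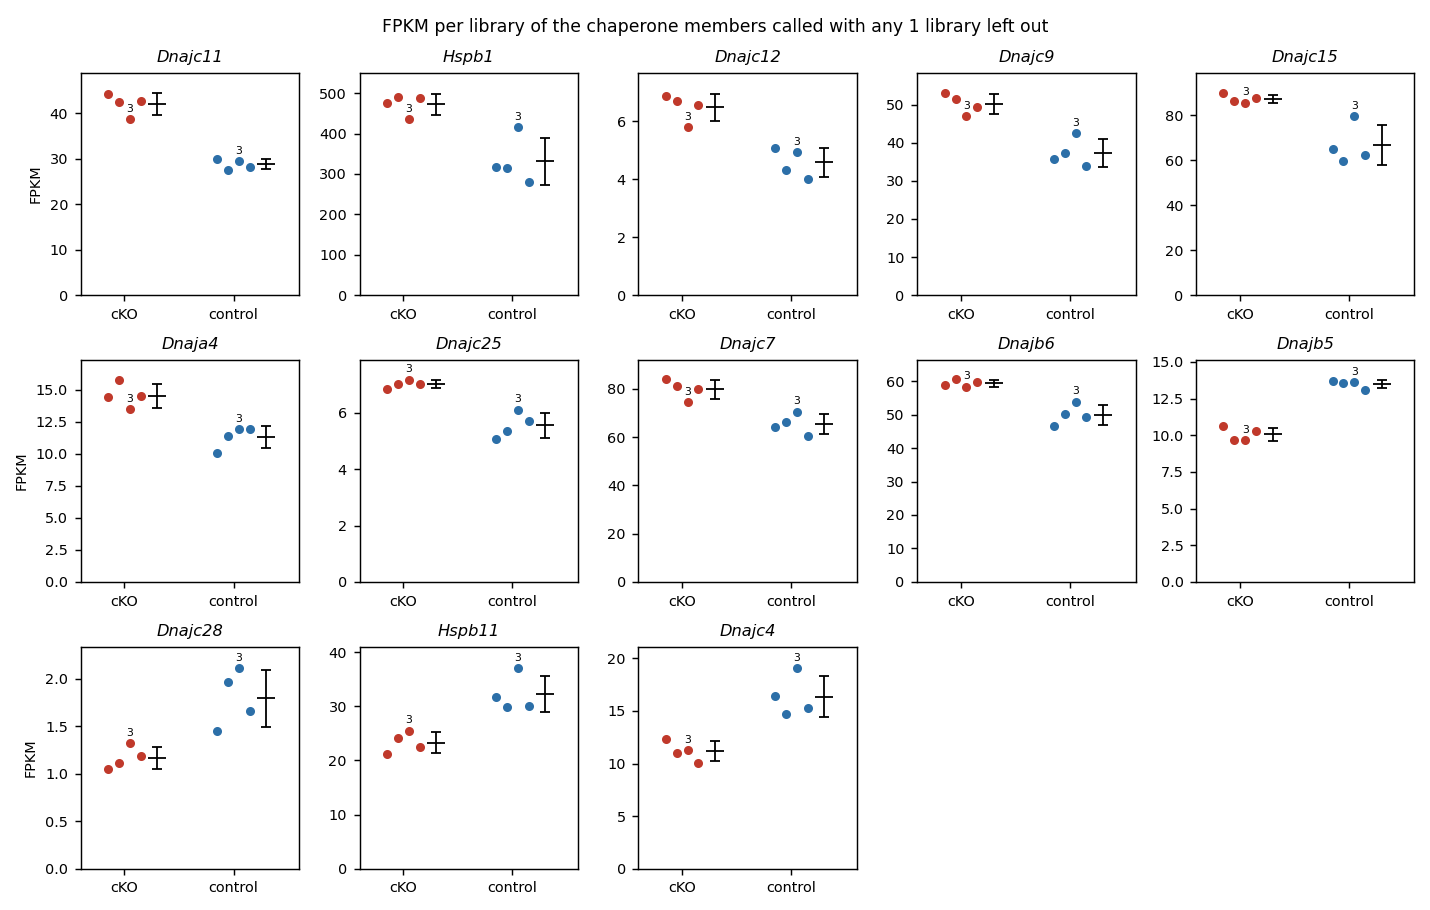
FPKM in each of 4 cKO (red, left) and 4 control (blue, right) libraries for the 13 members called with any 1 library left out, with the mean ± SD beside the points and library 3 of each group numbered. In all 13 panels the points of the groups stay apart, as for Dnajc11 at 38.8 to 44.2 FPKM in cKO against 27.6 to 29.96 FPKM in control libraries.

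Dnajc11 had the smallest adjusted p of the members. In human cells its protein lies at the outer mitochondrial membrane and binds the complex that shapes the cristae. Its level was 44.2, 42.5, 38.8 and 42.7 FPKM in the cKO libraries, against 29.96, 27.6, 29.5 and 28.2 FPKM in the controls. The groups were 8.83 FPKM apart at their nearest points, and the change was 45.2% (log2 fold change 0.54, SE 0.05, limma adjusted p = 0.000271). The gene lies on the plus strand of chromosome 4 from 151933691 to 151982137 (GENCODE, GRCm38, the build also called mm10). Dnajc15 encodes a J protein of the inner mitochondrial membrane linked to import and to respiratory chain activity. It had 89.8, 86.5, 85.6 and 87.8 FPKM in cKO, against 65.0, 59.6, 79.6 and 62.3 FPKM in control libraries. The cKO values were tightly grouped and all above control library 3, which stood well over the other controls (log2 fold change 0.40, SE 0.08, adjusted p = 0.00843).

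The mitochondrial J proteins did not move one way. Dnajc4, a little-studied J protein that was listed among the mitochondrial members, had 12.4, 10.996, 11.2 and 10.1 FPKM in cKO libraries, against 16.4, 14.7, 19.1 and 15.3 FPKM in control libraries. It was the member with the largest fall (log2 fold change -0.53, SE 0.09, adjusted p = 0.00284). Dnajc28, also placed in that list and little studied, was near the lower limit of testing at 1.05, 1.11, 1.32 and 1.18 FPKM in cKO and 1.45, 1.97, 2.11 and 1.66 FPKM in control libraries. All cKO values were below all controls (log2 fold change -0.46, SE 0.11, adjusted p = 0.0143). Of 10 mitochondrial members, 3 were higher (Dnajc11, Dnajc15 and Hspe1) and 3 were lower (Dnajc4, Dnajc28 and Hspa9), against 15.9% and 14.9% of all genes. The other 4 were not called, and the median change was -0.01.

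Dnajc9 encodes a J protein that in human cells also binds histones H3 and H4. Libraries of cKO hearts had 53.0, 51.6, 47.1 and 49.5 FPKM, against 35.6, 37.3, 42.6 and 33.9 FPKM in controls, without overlap (log2 fold change 0.43, SE 0.07, adjusted p = 0.00331). Dnajc12, known in human for the folding of aromatic amino acid hydroxylases, was low, at 6.86, 6.69, 5.80 and 6.55 FPKM in cKO and 5.07, 4.33, 4.92 and 3.999 FPKM in control libraries. Again no control reached the cKO range (log2 fold change 0.46, SE 0.08, adjusted p = 0.0036). Dnajc7 carries repeats that bind both Hsp70 and Hsp90. Its values were 84.0, 81.0, 74.5 and 80.0 FPKM in cKO, against 64.4, 66.2, 70.6 and 60.4 FPKM in control libraries (log2 fold change 0.29, SE 0.06, adjusted p = 0.00794). The highest control, library 3, was still below the lowest cKO library. Dnajc25 had 6.87, 7.05, 7.19 and 7.02 FPKM in cKO, against 5.08, 5.38, 6.12 and 5.70 FPKM in control libraries, with no overlap (log2 fold change 0.31, SE 0.06, adjusted p = 0.00409). Its exons share 348 bases with the exons of the same-strand gene model Gm20503.

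The class A and class B J proteins (4 and 8 tested), the general partners of Hsp70, gave 2 calls that rose and 1 that fell. Over all genes, 15.9% rose and 14.9% fell. Dnaja4, a class A member of the cytosol, had 14.4, 15.7, 13.5 and 14.5 FPKM in cKO, against 10.1, 11.4, 11.9 and 11.9 FPKM in control libraries, without overlap (log2 fold change 0.35, SE 0.07, adjusted p = 0.00541). It shares 1581 exonic bases with Wdr61 on the opposite strand. Dnajb6, which suppresses protein aggregation and whose mutations in human cause a limb-girdle muscular dystrophy, had 58.8, 60.7, 58.4 and 59.9 FPKM in cKO, against 46.6, 50.1, 53.9 and 49.2 FPKM in control libraries. The cKO libraries were within 2.30 FPKM of each other and above all controls (log2 fold change 0.25, SE 0.05, adjusted p = 0.00697). Of the 50-base words of its transcript, 35.8% also occur in other genes, mainly gene models such as Gm2541, so its reads could have been shared in counting. Dnajb5, a class B J protein, went the other way, with 10.6, 9.70, 9.67 and 10.3 FPKM in cKO and 13.7, 13.6, 13.6 and 13.1 FPKM in control libraries. Its groups were narrow and well apart (log2 fold change -0.41, SE 0.04, adjusted p = 0.000395). The gene lies on the plus strand of chromosome 4 from 42949814 to 42959425.

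Several abundant J proteins were not called. Dnaja2 had 62.7 to 63.9 FPKM in cKO and 60.9 to 71.6 FPKM in control libraries (log2 fold change -0.02), and Dnaja1 had 47.3 to 52.6 FPKM in cKO and 41.1 to 50.7 FPKM in control libraries (0.17, adjusted p = 0.0936). Dnajb1, the J protein that accompanies Hsp70 in the heat shock response, had 23.2, 24.3, 25.3 and 25.9 FPKM in cKO, against 20.4, 24.0, 29.3 and 23.7 FPKM in control libraries. Its cKO range lay inside the control range (log2 fold change 0.03, SE 0.10, adjusted p = 0.843). Dnajb4, named after its values were seen, had 21.2 to 26.4 FPKM in cKO and 18.9 to 26.1 FPKM in control libraries (0.16, adjusted p = 0.29). Dnajc8, an abundant nuclear member, had 77.5 to 79.4 FPKM in cKO and 74.0 to 88.3 FPKM in control libraries (0.01). Of the remaining called J proteins, Dnajc18 of the ER membrane was lower in all cKO libraries, at 6.16 to 6.32 against 6.79 to 7.04 FPKM (log2 fold change -0.14, adjusted p = 0.0229). The other called ones, chosen here after their values were seen, overlapped between groups: the ribosome-associated Dnajc2 was higher (0.26, adjusted p = 0.0291) and Dnajc27 was lower (-0.18, adjusted p = 0.0431). Dnajc18 lost its call without any of cKO libraries 1 to 4 or control library 2 (adjusted p up to 0.0742), Dnajc27 without any but control library 4 (up to 0.106), and Dnajc2 without any but cKO or control library 3 (up to 0.0823). Of 9 members of the ER, Dnajc25 was higher and Dnajc18 lower (11.1% each, against 15.9% and 14.9% of all genes).

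Among small heat shock proteins, the abundant cytosolic ones rose and Hspb11 fell. Of 7 tested, 3 were higher and 1 was lower, against 15.9% and 14.9% of all genes, and the median change was -0.08. Hspb1, which binds actin and unfolded proteins, had the highest level of the family, with 475, 490, 435 and 487 FPKM in cKO, against 317, 314, 415 and 279 FPKM in control libraries. Control library 3 came within 20.2 FPKM of the lowest cKO library and the other controls stayed far below (log2 fold change 0.52, SE 0.11, adjusted p = 0.00954). Hspb1 lies on the plus strand of chromosome 5 from 135887919 to 135889563, and 51.6% of the 50-base words of its transcript also occur in the pseudogene Hsp25-ps1, so its reads could have been split or shared in counting. Hspb7, a heart and muscle member needed for thin filament assembly in mouse, had 346, 341, 314 and 332 FPKM in cKO, against 281, 279, 317 and 273 FPKM in control libraries. Control library 3 overlapped the cKO range (log2 fold change 0.21, SE 0.07, adjusted p = 0.037).

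Hspb2, also of striated muscle, lies head to head with Cryab, the alpha B crystallin gene, and both genes were higher in cKO hearts. Hspb2, named here after its values were seen, had 188, 183, 167 and 183 FPKM in cKO, against 142, 128, 173 and 125 FPKM in control libraries, where library 3 again overlapped (log2 fold change 0.35, SE 0.10, adjusted p = 0.0302). Cryab, a listed partner rather than a member, had 377, 370, 332 and 389 FPKM in cKO, against 255, 239, 295 and 243 FPKM in control libraries, without overlap (0.51, SE 0.08, adjusted p = 0.0025). The ratio of Hspb2 to Cryab was 0.469 to 0.503 in cKO and 0.515 to 0.588 in control libraries. In GENCODE their exons overlap by 252 bases on opposite strands. At the deposited positions they do not overlap, as Hspb2 ends at 50752354 and Cryab starts at 50752757. The library kit was a stranded one, and whether the authors counted reads by strand is not stated. Both Hspb2 and Hspb7 lost their calls when any library but library 3 of either group was left out (adjusted p up to 0.0832 and 0.1).

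Hspb11 is a small heat shock protein by name that works as a subunit of the intraflagellar transport complex of cilia. It had 21.1, 24.1, 25.5 and 22.4 FPKM in cKO, against 31.8, 29.9, 37.1 and 30.1 FPKM in control libraries. No library of the groups overlapped (log2 fold change -0.46, SE 0.08, adjusted p = 0.0041). The uncalled members, named after their values were seen, had 33.8 to 38.5 FPKM in cKO and 38.7 to 49.1 FPKM in control libraries for Hspb3 (-0.22, adjusted p = 0.071), 44.5 to 53.3 and 47.2 to 56.7 FPKM for Hspb8, and 3.78 to 4.34 and 3.70 to 4.70 FPKM for Hspb6. Library 3 was the highest control for all 7. Summed over the family, cKO libraries had 1024 to 1128 FPKM and control libraries 797 to 1054 FPKM, the highest control being library 3. Of 10 members listed for quality control at the sarcomere or Z-disc, 5 were higher (Dnajb6, Hspb1, Hsp90aa1, Hspb2 and Hspb7) and 0 were lower, against 15.9% and 14.9% of all genes, and the median was 0.10. The calls of Hsp90aa1, Hspb2 and Hspb7 held in 2 of 8 fits with a library left out.

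**Figure D3:**
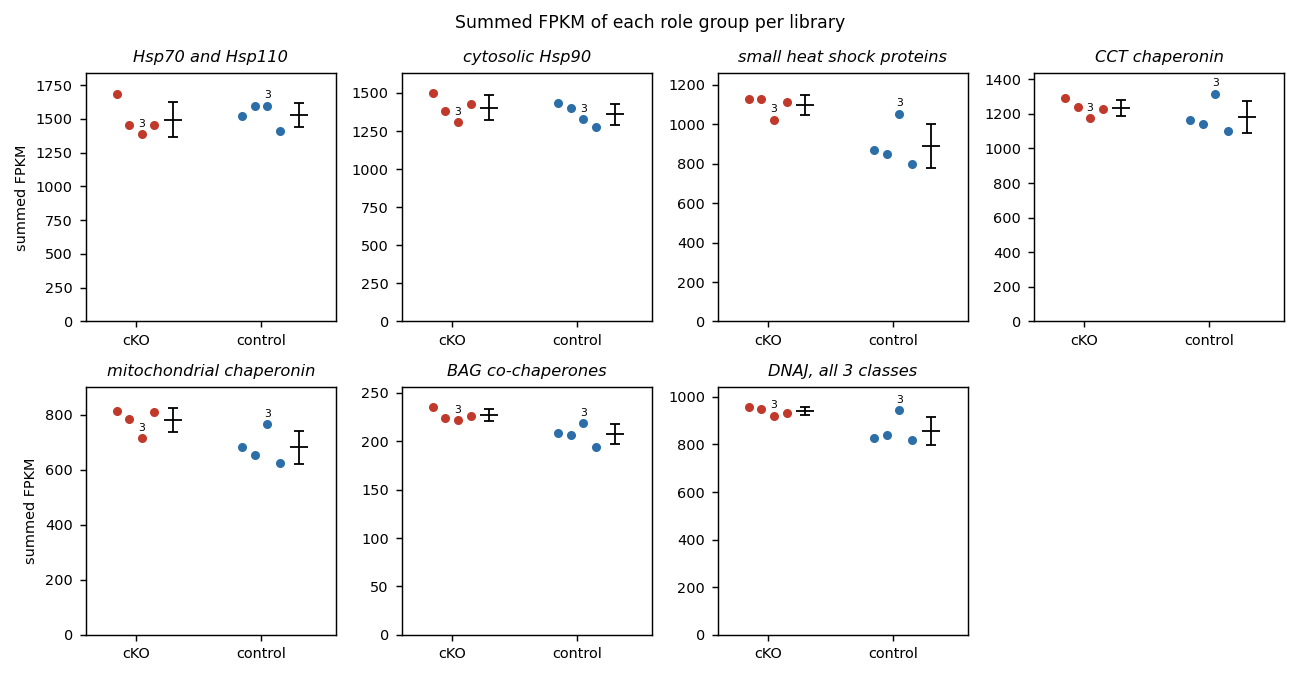
Summed FPKM of the members of each role group in each of 4 cKO (red, left) and 4 control (blue, right) libraries, with mean ± SD and library 3 of each group numbered. The small heat shock proteins sum to 1024 to 1128 in cKO and 797 to 1054 in control libraries, and control library 3 is the highest control in each panel but that of Hsp90.

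The Hsp70 and Hsp110 proteins had 13 tested members, with 4 higher, 2 lower and a median change of 0.04. These were 30.8% and 15.4%, against 15.9% and 14.9% of all genes. Hspa8, the constitutive Hsp70 and the most abundant member of all, had 1297, 1084, 1029 and 1078 FPKM in cKO, against 1126, 1215, 1188 and 1034 FPKM in control libraries. The ranges overlapped almost fully (log2 fold change -0.03, SE 0.09, adjusted p = 0.857), and 73.2% of its 50-base words also occur in other genes, mainly pseudogenes. Hspa9, the Hsp70 of the mitochondrial matrix that pulls proteins in during import, had 186, 181, 171 and 183 FPKM in cKO, against 206, 198, 223 and 201 FPKM in control libraries. It was lower in every cKO library (log2 fold change -0.20, SE 0.06, adjusted p = 0.0273). The call was lost without cKO library 2, 3 or 4 or control library 1 (adjusted p up to 0.0775).

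The heat-inducible Hspa1a and Hspa1b were near the lower limit of testing. Hspa1b had 1.38, 0.984, 1.27 and 1.71 FPKM in cKO, against 0.673, 0.956, 0.77 and 0.763 FPKM in control libraries (log2 fold change 0.50, SE 0.13, adjusted p = 0.0231). Hspa1a had 1.35, 1.05, 1.20 and 1.82 FPKM in cKO, against 0.75, 1.06, 0.859 and 0.734 FPKM in control libraries (0.45, SE 0.14, adjusted p = 0.0417). Hspa1b did not overlap between groups and Hspa1a did. Their transcripts share most of their sequence (60.3% and 62.3% of 50-base words), so their sum is the safer quantity: it was 2.73, 2.036, 2.47 and 3.53 FPKM in cKO, against 1.42, 2.015, 1.63 and 1.497 FPKM in control libraries. The summed groups differed by little at their nearest points. Hspa1b lost its call without cKO library 1 or control library 1 (adjusted p up to 0.0559), was under the minimum mean of 1 FPKM and so not tested without cKO library 4, and Hspa1a lost its call without cKO library 1, 3 or 4 or control library 1, 3 or 4 (up to 0.0986).

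Hspa4, an Hsp110 that exchanges the nucleotide of Hsp70, had 76.9, 72.0, 71.1 and 74.9 FPKM in cKO, against 67.7, 65.1, 66.4 and 64.2 FPKM in control libraries, a small difference without overlap (log2 fold change 0.16, SE 0.04, adjusted p = 0.025). Hspa2, best known from the testis, had 7.03 to 7.71 FPKM in cKO and 6.14 to 6.96 FPKM in control libraries (0.17, adjusted p = 0.0384). Hspa12a, a distant relative named after its values were seen, had 3.12 to 3.96 FPKM in cKO and 3.89 to 4.60 FPKM in control libraries (-0.24, adjusted p = 0.0413). Each of these 3 calls was lost in at least 5 of the 8 fits with a library left out (adjusted p up to 0.0801, 0.113 and 0.0979). Hsph1, the heat-inducible Hsp110, was not called, with 33.0, 27.5, 27.3 and 30.01 FPKM in cKO and 30.5, 31.2, 27.3 and 25.2 FPKM in control libraries (0.04, adjusted p = 0.724).

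The 2 cytosolic Hsp90 genes are the inducible Hsp90aa1 and the constitutive Hsp90ab1. Hsp90aa1 had 411, 412, 367 and 398 FPKM in cKO, against 316, 327, 371 and 304 FPKM in control libraries. Control library 3 lay above the lowest cKO library and the other controls lay below all (log2 fold change 0.27, SE 0.08, adjusted p = 0.0261). Hsp90ab1 had 1086, 970, 941 and 1029 FPKM in cKO, against 1120, 1071, 955 and 972 FPKM in control libraries, fully overlapping (-0.03, SE 0.08, adjusted p = 0.804). The ratio of Hsp90aa1 to Hsp90ab1 was 0.378, 0.425, 0.390 and 0.387 in cKO, against 0.282, 0.305, 0.389 and 0.313 in control libraries. Like Dnajc2, Hsp90aa1 kept its call only without cKO library 3 or control library 3 (adjusted p up to 0.0767 in the other fits), and 58.5% of its 50-base words also occur in other genes.

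In the mitochondrial chaperonin, the lid Hspe1 was higher and the barrel Hspd1 was not called. Hspe1 had 384, 374, 340 and 383 FPKM in cKO, against 294, 288, 352 and 262 FPKM in control libraries, overlapping through control library 3 (log2 fold change 0.31, SE 0.09, adjusted p = 0.0316). Hspd1 had 428, 408, 375 and 426 FPKM in cKO, against 389, 366, 412 and 362 FPKM in control libraries (0.10, SE 0.07, adjusted p = 0.316). The ratio of Hspe1 to Hspd1, computed within each library, was 0.898, 0.918, 0.908 and 0.899 in cKO, against 0.757, 0.789, 0.853 and 0.723 in control libraries. No control reached the cKO values of this ratio, which is given as a description. Hspe1 lost its call without any library but library 3 of either group (adjusted p up to 0.0863). Both genes have pseudogenes, with 36.1% of the 50-base words of Hspe1 and 44.8% of those of Hspd1 found elsewhere.

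**Figure D4:**
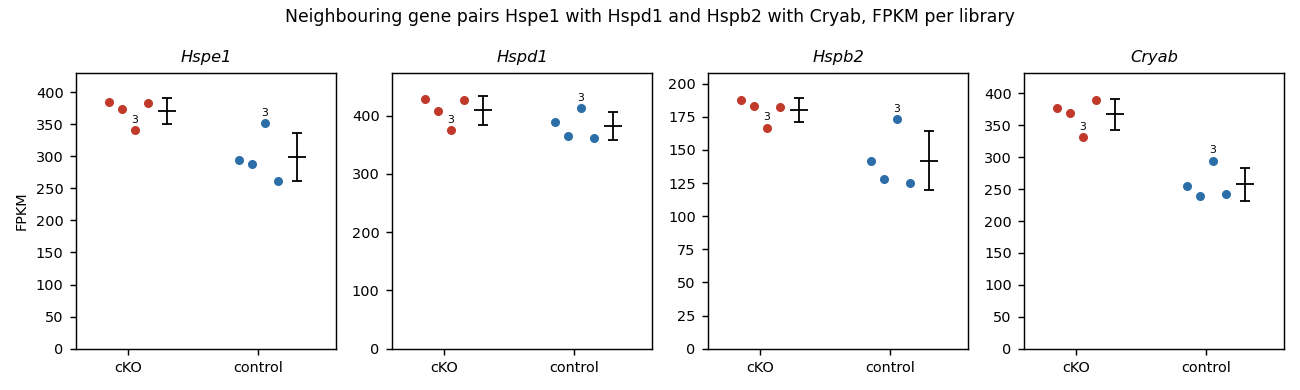
FPKM in each of 4 cKO (red, left) and 4 control (blue, right) libraries for the neighbouring genes Hspe1 and Hspd1 and the neighbouring genes Hspb2 and Cryab, with mean ± SD and library 3 of each group numbered. Cryab does not overlap between groups (332 to 389 against 239 to 295 FPKM), and in the other 3 panels control library 3 lies within the cKO range.

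Hspe1 and Hspd1 are transcribed away from each other, with 215 bases between their RefSeq starts on chromosome 1. In GENCODE their exons overlap by 112 bases on opposite strands. At the deposited positions they do not overlap, as Hspd1 ends at 55087932 and Hspe1 starts at 55088147. Whether reads were counted by strand is not stated, which also bears on their ratio. Heat shock factors bind inverted repeats of the unit GAA, called heat shock elements, so these letters were searched in the 300 bases (250 before to 50 after the start) that RefSeq gives for each gene. The pattern of 3 units was GAANNTTCNNGAA or TTCNNGAANNTTC on either strand. It was found in 4 of the 66 members with a window (6.06%) and in 179 of 27025 genes (0.662%). The 4 were Hspe1 and Hspd1, which share it, Dnajb6 and Hsph1. Members without a window, among them Hsp90aa1, Hspa8, Hsp90ab1 and Hspa9, were not searched. The shared stretch, which holds 2 overlapping matches, and those of Dnajb6 and Hsph1 are shown because these are the members that carry the longer pattern. Capitals mark the matched letters.
Hspe1 and Hspd1, chr1:55088053-55088082, plus strand: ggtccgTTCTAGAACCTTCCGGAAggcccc
Dnajb6, chr5:29735844-29735873, plus strand: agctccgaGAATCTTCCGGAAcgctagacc
Hsph1, chr5:149636288-149636300, minus strand: TTCTGGAAAGTTC
The sequences are from RefSeq on GRCm38.p6. The Hspe1 match lies 72 to 89 bases before the RefSeq start of Hspe1 and 127 to 144 bases before that of Hspd1. In GENCODE it lies within the Hspd1 gene, which spans 55077835 to 55088243. In Dnajb6 the match lies 34 to 46 bases before a RefSeq start, and in Hsph1 it covers bases 16 to 28 from a RefSeq start.

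Of the 4 genes with these letters, Hspe1 and Dnajb6 were higher and Hspd1 and Hsph1 were not called. Of 54 tested members with a window and no match, 12 were higher, 6 were lower and 36 were not called. The shorter pattern of 2 units was GAANNTTC or TTCNNGAA, which lies within the longer one. It occurred in 21 of the 66 members (31.8%) and in 17.0% of all genes. The members with it included Hspb1, Hspa1a and Hspa1b, which were higher, and Dnajc27, which was lower. Others with it, such as Dnaja1, Bag3, Cct5, Hspb3, Hspb6 and Hspb8, were not called. A match describes the letters of this window and no more.

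The classical heat-inducible members were a list of 11 genes, several named above, that also holds the constitutive Hspa8. Among them 5 were higher (Hspb1, Hspa1b, Hsp90aa1, Hspe1 and Hspa1a), 0 were lower and 6 were not called, with a median change of 0.17. Of all genes, 15.9% were higher and 14.9% lower, and of these 5 calls only that of Hspb1 held in all 8 fits with a library left out. The 6 were Hspa8, Hsph1, Hspd1, Dnajb1, Dnaja1 and Bag3. Bag3, a BAG protein that acts with Hspb8 in clearing damaged muscle proteins, had 20.5, 17.5, 17.9 and 19.9 FPKM in cKO, against 20.9, 19.6, 17.7 and 18.3 FPKM in control libraries (-0.01, adjusted p = 0.899). Of the other BAG proteins, Bag2, an inhibitor of the ubiquitin ligase Stub1, was higher, with 41.5, 40.7, 39.0 and 39.6 FPKM in cKO, against 34.3, 33.6, 38.1 and 31.9 FPKM in control libraries, without overlap (0.22, SE 0.06, adjusted p = 0.0209). Its call was lost without cKO library 1, 2 or 4 or control library 2 (adjusted p up to 0.0602). The most abundant, Bag1, had 85.2 to 88.6 FPKM in cKO and 69.0 to 89.5 FPKM in control libraries (0.21, adjusted p = 0.0817), and Bag6 had 57.8 to 65.5 and 53.2 to 67.6 FPKM (0.04).

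The subunits of CCT, which folds actin and tubulin, were not called: 0 of 7 passed limma's adjusted threshold, with changes of -0.01 to 0.17, and 1, Cct8, had an unadjusted p under 0.05. The levels were high and close to each other in both groups, as for Cct5 at 232, 226, 212 and 228 FPKM in cKO and 218, 215, 253 and 207 FPKM in control libraries (log2 fold change 0.01, adjusted p = 0.925). Cct3 had 216, 201, 189 and 202 FPKM in cKO and 190, 180, 210 and 175 FPKM in control libraries (0.10, adjusted p = 0.343). Cct8, named after its values were seen, had 154 to 162 FPKM in cKO and 132 to 159 FPKM in control libraries (0.17, unadjusted p = 0.0264 and adjusted p = 0.0744 from limma). Control library 3 was the highest control for all 7, and without it 3 of them, Cct2, Cct4 and Cct8, were higher. Summed with Tcp1, the remaining subunit, the complex had 1479, 1424, 1354 and 1407 FPKM in cKO, against 1337, 1318, 1517 and 1270 FPKM in control libraries.

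The 10 members below 1 FPKM were Cct6b, Cct8l1, Dnajb7, Dnajb8, Dnajb13, Dnajc5b, Dnajc5g, Dnajc6, Dnajc22 and Hspb9. Dnajb8 and Dnajc5g were listed at 0.001, the lowest value of the table, in all 8 libraries. Dnajc6, the neuronal clathrin uncoating factor auxilin, had 0.281 to 0.377 FPKM in cKO and 0.0476 to 0.109 FPKM in control libraries, and Dnajc22 had 0.468 to 0.784 FPKM in cKO and 0.97 to 1.24 FPKM in control libraries. Both were named after their values were seen and, like the others of the 10, were left out of the test by the limit of 1 FPKM. With no limit on mean FPKM, 24 members were called, among them Dnajc6, Dnajc22 and Cct6b, and 3643 of 23521 genes.

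Of the 4 ER genes left out by the rule, Dnajb11, a co-chaperone of the ER Hsp70, was higher, with 87.7, 78.4, 75.5 and 78.6 FPKM in cKO, against 67.1, 67.1, 68.0 and 52.9 FPKM in control libraries (log2 fold change 0.33, adjusted p = 0.0225). Hspa5, Dnajb9 and Dnajc3 were not called.

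Genes that work with the chaperones were followed in lists set by their known roles. Of 65 tested, 16 were higher (24.6%) and 13 were lower (20%), against 15.9% and 14.9% of all genes, with a median change of 0.03. Without control library 3 the counts were 26 higher and 16 lower, against 22.2% and 17.0% of all genes. The largest changes lay in the mitochondria, where 6 of 17 genes of folding and proteolysis were higher (35.3%) and 4 were lower (23.5%). Lonp1, the main protease of the matrix, had 76.9, 75.1, 70.9 and 76.5 FPKM in cKO, against 43.6, 46.8, 44.2 and 44.4 FPKM in control libraries (log2 fold change 0.74, SE 0.05, adjusted p = 3.94e-05). Htra2, a serine protease of the intermembrane space, had 47.2, 45.6, 43.0 and 46.9 FPKM in cKO, against 26.7, 25.2, 28.6 and 24.5 FPKM in control libraries (0.79, SE 0.06, adjusted p = 8.09e-05). Both stood far outside the control range in all 4 cKO libraries. Clpb, a disaggregase, and Afg3l2, a protease subunit of the inner membrane, were lower (-0.43, adjusted p = 0.000504, and -0.21, adjusted p = 0.0056).

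Of 27 co-chaperones of Hsp70 and Hsp90, 5 were higher (18.5%) and 6 were lower (22.2%), against 15.9% and 14.9% of all genes. Sugt1, an Hsp90 co-chaperone, had 56.9, 61.7, 50.1 and 55.9 FPKM in cKO, against 35.8, 37.8, 43.1 and 36.7 FPKM in control libraries (0.54, SE 0.08, adjusted p = 0.00138), and Cdc37l1 was also higher (0.21, adjusted p = 0.00698). Unc45b, the chaperone that folds muscle myosin together with Hsp90, had 75.1, 66.4, 61.4 and 69.7 FPKM in cKO, against 96.6, 84.6, 85.8 and 87.0 FPKM in control libraries (-0.38, SE 0.07, adjusted p = 0.00514). Fkbp8, an immunophilin anchored in the outer mitochondrial membrane, was lower too (-0.34, adjusted p = 0.00226). Prefoldin hands unfolded actin and tubulin to CCT. Its subunits Pfdn2 (0.51, adjusted p = 0.000818), Pfdn1 (0.36, adjusted p = 0.0096) and Pfdn4 (0.29, adjusted p = 0.0071) were higher. The subunits Pfdn5 (-0.07, adjusted p = 0.605) and Vbp1 (-0.10, adjusted p = 0.469), named after their values were seen, were not called. The CCT cofactor Pdcl was lower (-0.41, adjusted p = 0.00423). Whether the prefoldin and CCT changes differ was not tested. In this list of 14 genes, 4 were higher (28.6%) and 2 were lower (14.3%). Of 3 tested genes of the heat shock factor list, 0 were higher and 1, the factor-binding protein Hsbp1, was lower (-0.29, adjusted p = 0.028), a call lost without any of cKO libraries 1 to 4 or control library 2 (adjusted p up to 0.0736). None of the 4 tested J proteins with other names was called.

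**Figure D5:**
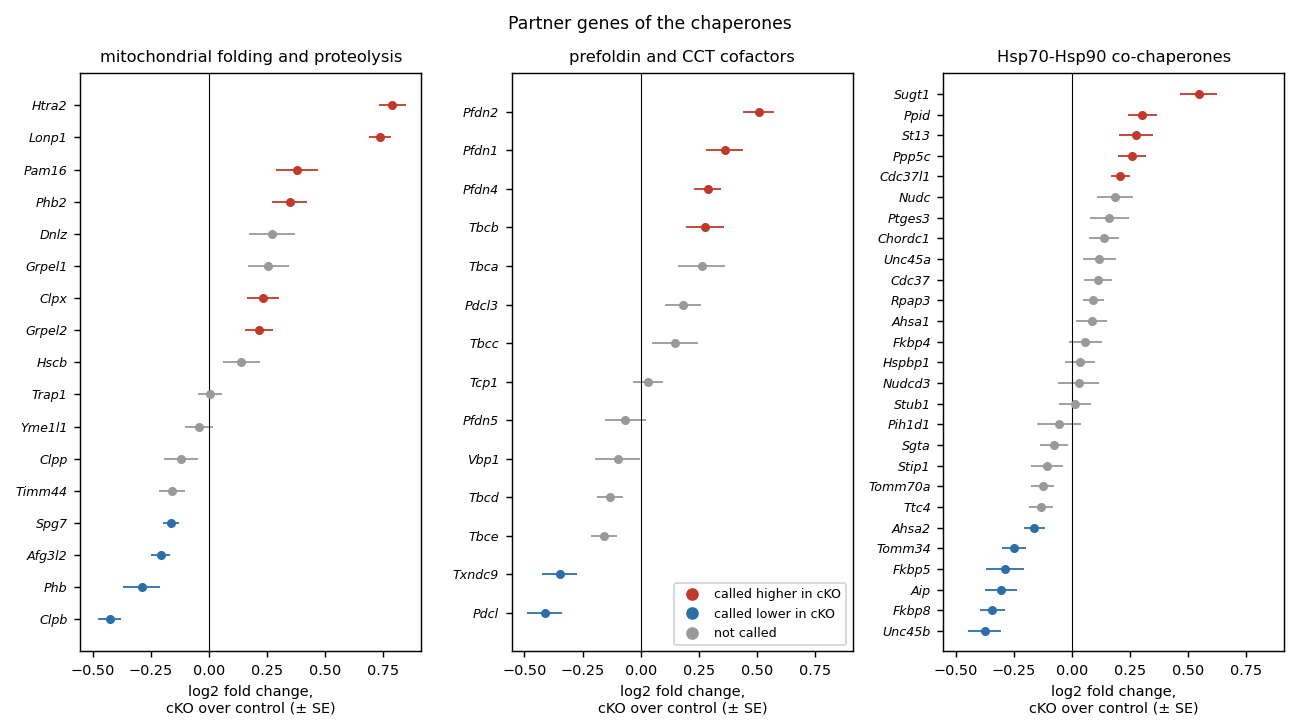
Log2 fold change (cKO over control, on log2(FPKM + 0.5)) of the tested genes of 3 partner lists, with bars of 1 standard error. Red points were called higher, blue points lower and grey points neither. Htra2 (0.79) and Lonp1 (0.74) stand apart on the high side, and Clpb (-0.43) and Pdcl (-0.41) are the lowest.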

How the data were processed

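RNA from whole E11.5 hearts (4 cKO and 4 control libraries) was sequenced from oligo(dT)-selected mRNA with a stranded Illumina TruSeq kit. The authors aligned reads with TopHat2, which runs Bowtie2, to the mm10 genome. What they deposited is 1 table of FPKM per gene (a unit entered as other here, because 1.32% of cells hold text codes for low data or failed estimates). Tool versions, gene annotation and read depth are not given in the sources used here. A deposited column of the authors' p-values was not used. Symbols of 27 entries had turned into dates (17 tested) and were not named.

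Of 23521 entries that had numbers throughout, the 12629 averaging 1 FPKM or more were transformed to log2(FPKM + 0.5). The 2 group means were fitted in limma 3.58.1 (R 4.3.3), with variances moderated by empirical Bayes along an intensity trend. The threshold for a call was 0.05 after Benjamini-Hochberg adjustment. The study tested reads with Cuffdiff2, which FPKM do not allow. The procedure was tested on simulated data. Read counts being absent here, the precision of a value is the spread among 4 libraries. Depth relative to control library 1, from the smallest FPKM steps of short loci, was 1.12 to 1.25 in cKO and 1.00 to 1.22 in control libraries, and FPKM summed to 562190 to 597408 in cKO and 538581 to 637528 in control libraries.

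The members, the lists and the tests were chosen with earlier results of these data known. Named genes were the called members whose groups did not overlap, the 2 most abundant members of each role group, the heat-inducible members, up to 4 called partners per list by adjusted p, Ogt and the 4 excepted genes. Pln, Dnajb4, Dnajc2, Dnajc6, Dnajc19, Dnajc22, Dnajc27, Hspa12a, Hspb2, Hspb3, Hspb6, Hspb8, Cct2, Cct4, Cct6b, Cct8, Pfdn5 and Vbp1 were named after their values were seen. Gene positions and exon overlaps are from GENCODE M21, shared 50-base words from its transcripts, and promoter windows from RefSeq. Analyses used Python 3.11.15, with figures from matplotlib 3.10.9. Alternatives tried were pseudocounts of 0.1 and 1, other filters, scaling by quantiles or by median ratios, leaving haemoglobin genes out, array weights and other variance settings, the replicate number as a block, the label prefix, and leave-one-out fits.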

Additional observations from a re-analysis of the deposited data

Results flagged for a closer look

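Within groups of 4, a library far from the other 3 was looked for in 144 groups (72 members in cKO and in control libraries), by the gap to the nearest value over the whole range. It was found in 6 groups (4.17%), and chance gives about 1 in 20. Dnajb4 was 21.2 FPKM in cKO library 1, with 25.9 to 26.4 FPKM in the other cKO libraries. Dnajb5 was 13.1 FPKM in control library 4, against 13.6 to 13.7 FPKM in the other controls. Dnajc8 was 88.3 FPKM in control library 3, with 74.0 to 74.4 FPKM in the others. Dnajc19, of the mitochondrial import motor, was 51.0 FPKM in cKO library 4 (others 58.5 to 59.0 FPKM) and 60.1 FPKM in control library 3 (others 45.6 to 47.5 FPKM). Hspb6 was 4.34 FPKM in cKO library 4, with 3.78 to 3.84 FPKM in the other cKO libraries. Of these 5 members, only Dnajb5 was called, and it was lower in cKO.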

How the results depend on the processing

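The fall of Ogt kept its call under all settings (log2 fold change -0.98 to -0.88 with a library left out). Counts moved by over 1.5 times as follows. With array weights, 6582 genes were called, against 3879, and 28 partners were higher and 21 lower. In the 5 libraries of 1 prefix of the library descriptions (its meaning is not stated, and the names of the value columns conflict with it), 1465 genes were called, 2 members were higher and 3 lower, and 3 partners were higher and 6 lower. With a mean of at least 5 FPKM, 4 members were lower. With a replicate block, 10 members were higher and 4 lower, and 3443 genes were called. Deviations from the group means had correlations of 0.127, 0.158, -0.0116 and 0.0128 between libraries of the same number. Between libraries of different numbers they were -0.123 to 0.102. Whether the numbers pair the libraries is not stated, and these correlations cannot decide it. Leaving out 1 library gave 2649 to 4951 called genes, 9 to 25 members higher, 4 to 8 lower, 12 to 26 partners higher and 9 to 16 lower, the highest counts higher being those without control library 3. The cause was not tested.

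Of 1213 values of 58 single genes under the alternatives, 1009 kept direction and side of the threshold, 153 lost the call, 11 gained one and 40 turned round, in 11 genes that were not called. Array weights turned Bag6 (-0.028), Dnaja2 (0.024), Hsph1 (-0.059) and Hspa5 (-0.065). The prefix as a covariate turned Dnajb1 (-0.018), Dnajc8 (-0.0054), Hspa8 (0.015), Hsp90ab1 (0.012), Bag3 (0.026) and Dnajb9 (-0.014). In 1 prefix alone, Cct5 (-0.046), Dnajb1 (-0.065), Dnajc8 (-0.049), Hsp90ab1 (0.024), Bag3 (0.031) and Dnajb9 (-0.022) turned. Quantile normalization turned Dnajc8 (-0.00033) and Hsp90ab1 (0.0098). With a library left out the ranges were -0.0098 to 0.10 for Bag6, -0.024 to 0.073 for Cct5, -0.050 to 0.027 for Dnaja2, -0.050 to 0.12 for Dnajb1, -0.0093 to 0.075 for Dnajc8, -0.098 to 0.013 for Hspa8, -0.068 to 0.011 for Hsp90ab1, -0.012 to 0.087 for Hsph1, -0.052 to 0.029 for Bag3, -0.023 to 0.13 for Hspa5 and -0.034 to 0.11 for Dnajb9.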
